A study of Mus musculus with 2 samples.

Results

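The family of miR-148 and miR-152 is a group of 3 mouse miRNA genes, Mir148a, Mir148b and Mir152, taken by name because their mature products share a seed. All 3 were found among the 1973 miRNA genes of the deposited tables. The tissue was fetal liver of mixed-sex B6NCrl mouse embryos (a C57BL/6N stock) at embryonic day 15.5, when the liver is also a blood-forming organ. The labels give 1 group, with neither a mutation nor a treatment, and microRNA-seq of RNA under 30 nucleotides was run on 2 libraries. Replicate 1 was a pool of 78 embryos and replicate 2 a pool of 62. Since embryos were pooled, the difference between the libraries is one of pools and library making, not of single animals, and no comparison between conditions exists.

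A miRNA is cut from a hairpin precursor into a duplex of about the size of a small interfering RNA, and 1 strand, usually the more abundant arm, guides Argonaute to messenger RNAs that pair with its seed, bases 2 to 8. The dominant arm of this family is the 3p arm. miR-148a is known as one of the abundant miRNAs of adult hepatocytes, where it represses the cholesterol exporter gene Abca1, and family members are known to target DNA methyltransferase messages such as Dnmt1. Outside the liver, miR-148a is also abundant in the pancreas and in plasma cells. Messenger RNAs were not measured here, so none of these targets was examined.

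The 3p sequences are shown first because they define the family and decide whether reads of its members can be told apart. They are RefSeq sequences on GRCm38.p6, written 5′ to 3′ with the seed in capitals.
miR-148a-3p: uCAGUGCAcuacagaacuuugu
miR-148b-3p: uCAGUGCAucacagaacuuugu
miR-152-3p: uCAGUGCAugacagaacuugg

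All 3 carried the seed CAGUGCA, and among 1738 mature sequences in the RefSeq table no others did. They were identical over their first 8 bases. Counting from 1 at the 5′ end, miR-148b-3p differed from miR-148a-3p by C9U and U10C. miR-152-3p differed from miR-148a-3p by C9U, U10G and U20G over 21 compared bases, and was 1 base shorter. The differences between members therefore sit at positions 9, 10 and 20, and a read that spans positions 9 and 10 can be assigned to 1 member. Each 3p sequence occurred in 1 gene, its own, among 141767 GENCODE transcripts, and its reverse complement in 0. The genome itself was not searched.

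The precursors are shown because the tables count reads per precursor gene and do not separate the arms. The 3p arm is in capitals.
Mir148a: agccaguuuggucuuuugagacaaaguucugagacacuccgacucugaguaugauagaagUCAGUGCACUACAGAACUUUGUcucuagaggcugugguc
Mir148b: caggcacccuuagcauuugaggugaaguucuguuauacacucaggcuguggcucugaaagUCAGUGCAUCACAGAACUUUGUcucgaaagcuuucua
Mir152: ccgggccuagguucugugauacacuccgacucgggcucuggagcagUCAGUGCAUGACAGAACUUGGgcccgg

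With gaps counted as differences, the annotated precursors were less alike than the mature 3p arms. In global alignments, Mir148a and Mir148b were identical at 68.9% of 103 alignment columns. Mir148a and Mir152 were identical at 58.4% of 101 columns, and Mir148b and Mir152 at 59.6% of 99. The annotated Mir152 precursor has 73 bases, against 99 and 97, so alignments with it must hold gaps. These percentages therefore do not rank the members by divergence. The opposite, 5p arms carried 2 distinct seeds, so the seed common to all 3 members is that of the 3p arm. The 5p seed was AAGUUCU in both Mir148a and Mir148b and AGGUUCU in Mir152.

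The 3 genes lie on different chromosomes, in related surroundings. Mir148a (ENSMUSG00000065505.1) is at chr6:51269812-51269910 on the minus strand of GRCm38, and no annotated gene of GENCODE M21 overlaps it. Mir148b (ENSMUSG00000065560.1) is at chr15:103285125-103285221 on the plus strand, inside Copz1. Mir152 (ENSMUSG00000065515.1) is at chr11:96850393-96850465 on the plus strand, inside Copz2. Copz1 and Copz2 are paralogues that encode zeta subunits of the coatomer, the coat of COPI vesicles. Both miRNAs lie in introns on the strand of their host. None of the 4 Copz1 transcripts and none of the 3 Copz2 transcripts that span the miRNA has an exon over it. The Mir152 intron is the tighter of the 2, where the nearest exons end 396 bases before and start 207 bases after the precursor.

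No Copz gene lies on the chromosome of Mir148a, but other paralogous genes lie near all 3 members. A gene of the Nfe2 family of transcription factors lies near each member: Nfe2l3 at 163 kb from Mir148a, Nfe2, a transcription factor of erythroid cells and megakaryocytes, at 26.7 kb from Mir148b, and Nfe2l1 at 20.4 kb from Mir152. A gene for a heterochromatin protein of the HP1 family lies near each as well, Cbx3 at 200.4 kb, Cbx5 at 45.3 kb and Cbx1 at 41.8 kb, in the same order of members. These neighbours were looked for after the annotation had been seen. No other annotated miRNA gene lies within 10 kb of any member.

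Mir148a was the main member in both pools. It had 8219 sense counts in replicate 1 and 4292 in replicate 2, where sense counts are reads on the gene's own strand. Scaled to 1000000 sense miRNA counts of its library (CPM), replicate 1 came to 1486 (exact 95% interval 1455 to 1519). Replicate 2 came to 1354 (1314 to 1395). Its mean was 1420 ± 93.7 CPM (SD, n = 2), which ranked 80 among all annotated miRNA genes and above 77.3% of the 352 detected genes, those that reached 10 counts in each library.

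Mir148b, the member in Copz1, was the second. It had 1915 sense counts in replicate 1 and 1045 in replicate 2, or 346 CPM (331 to 362) and 330 CPM (310.0 to 350.3). Its mean of 338 ± 11.8 CPM (SD, n = 2) ranked 135. The intervals of the libraries overlapped for Mir148b, whereas for Mir148a they did not.

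Mir152, the member in Copz2, was the lowest. It had 479 sense counts in replicate 1 and 283 in replicate 2, or 86.6 CPM (79.0 to 94.7) and 89.3 CPM (79.2 to 100.3). Its mean of 88.0 ± 1.87 CPM (SD, n = 2) ranked 193, close to the middle of the detected genes, 45.2% of which were lower. That SD is smaller than the counting intervals, because both values happened to lie close together.

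No member had a count on the opposite strand in either library. A count of 0 allows up to 3 counts, which is 0.543 CPM in replicate 1 and 0.946 in replicate 2. The order Mir148a, Mir148b, Mir152 held in both libraries with no overlap between members. Intervals and limits cover counting error only, since PCR copies cannot be told from separate molecules without molecular identifiers.

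**Figure D1:**
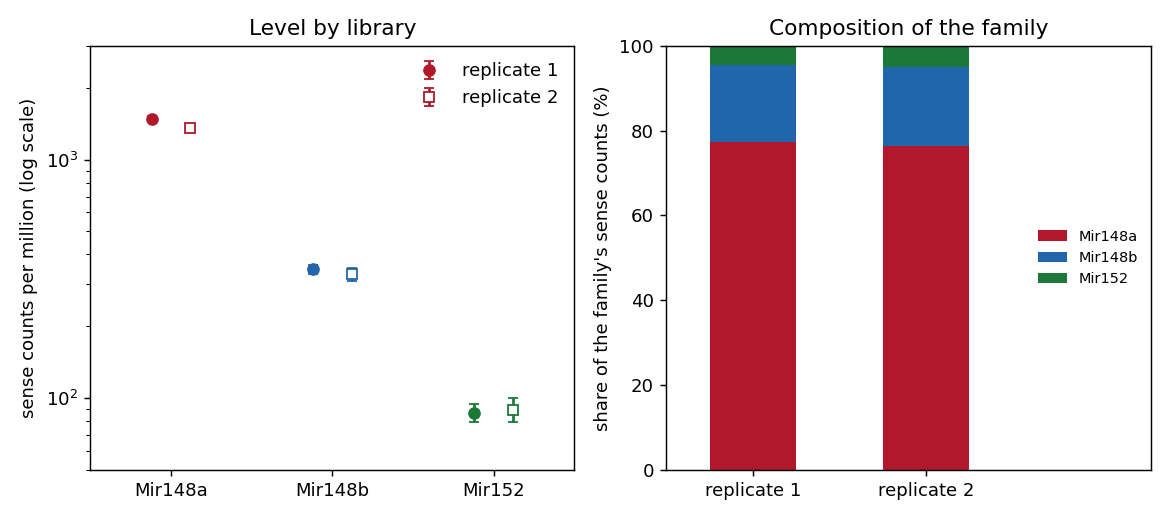
Left, sense CPM of each member on a log axis, with replicate 1 as filled circles, replicate 2 as open squares and exact 95% counting intervals as bars. Right, each member's share of the family's sense counts in each library, with Mir148a at 77.4% in replicate 1 and 76.4% in replicate 2.

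The composition of the family was nearly the same in both pools. Mir148a made up 77.4% of the family's counts (exact 95% interval 76.6 to 78.2) in replicate 1 and 76.4% (75.2 to 77.5) in replicate 2. Mir148b made up 18.0% (17.3 to 18.8) and 18.6% (17.6 to 19.6). Mir152 made up 4.51% (4.13 to 4.93) and 5.04% (4.48 to 5.64). For each member the intervals of the 2 libraries overlapped. These shares rest on counts within 1 library and need no scaling.

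On the count scale, each step down the order was about as large as the next. Mir148a had 4.29 times the counts of Mir148b in replicate 1 (interval 4.08 to 4.51) and 4.11 times in replicate 2 (3.84 to 4.4). Mir148b had 4.0 times the counts of Mir152 in replicate 1 (3.62 to 4.43) and 3.69 times in replicate 2 (3.24 to 4.23). Per base of annotated precursor, which is 99 bases for Mir148a, 97 for Mir148b and 73 for Mir152, the first ratio was 4.21 and 4.02 and the second 3.01 and 2.78. A small RNA read holds a whole mature miRNA, so the count does not grow with the length of the precursor as it would for a messenger RNA. Adapter ligation is known to favour some RNA ends over others. Its part in these ratios was not tested.

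The family as a whole was a small part of the profile. Its 3 genes held 10613 sense counts in replicate 1 and 5620 in replicate 2. These made up 0.192% of sense counts (exact 95% interval 0.188 to 0.196) in replicate 1, and 0.177% (0.173 to 0.182) in replicate 2, a mean of 0.185% ± 0.0104 (SD, n = 2). The libraries held 5529166 and 3169882 sense counts, 37.7% and 37.5% of all reads the tables account for. Reads mapped to several places, 29.3% and 31.1% of reads, entered no gene. The liver label was met by its markers: Mir122, the main hepatocyte miRNA, ranked 1 in both libraries, and the 5 hepatocyte miRNAs listed as markers held 18.7% and 17.3% of sense counts, nearly all of it from Mir122. Markers of blood, vessel and stroma were present as well, with Mir126a of endothelium at 4.48% and 4.36%. In bulk tissue, fewer cells of a type and less RNA per cell cannot be told apart.

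**Figure D2:**
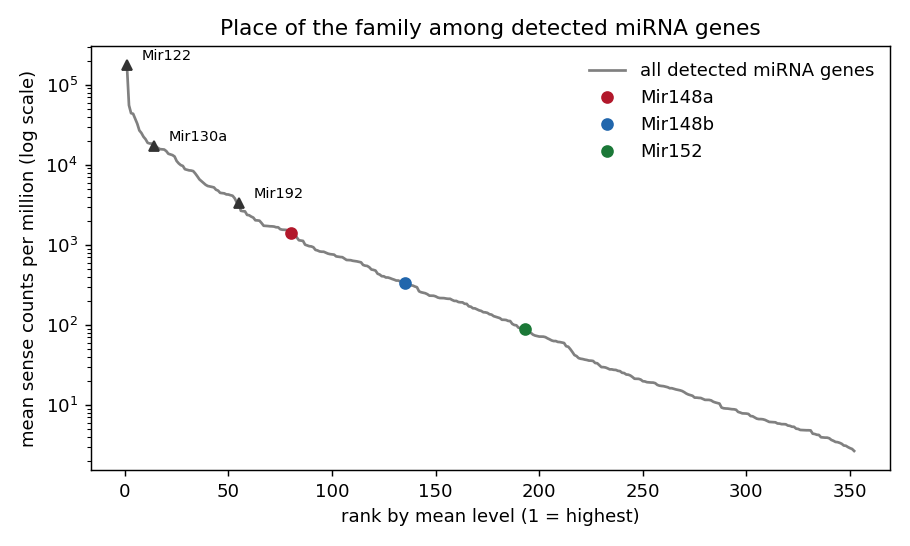
Mean sense CPM on a log axis against rank for the 352 detected miRNA genes (grey line), with the family as coloured circles and 3 other genes as black triangles. Mir148a, Mir148b and Mir152 sit at ranks 80, 135 and 193, below Mir122 at rank 1, Mir130a at rank 14 and Mir192 at rank 55.

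Mir148a was far below Mir122, and less far below Mir192. Its counts were 0.00815 of those of Mir122 in replicate 1 (interval 0.00798 to 0.00833) and 0.00802 in replicate 2 (0.00778 to 0.00827). Set against Mir192, a miRNA of liver and gut, the ratio was 0.430 (0.419 to 0.442) and 0.431 (0.416 to 0.447). Both ratios thus differed between the pools by less than their counting intervals. Per 100 bases of precursor the ratios were 0.00543 and 0.00535 to Mir122, and 0.387 in both libraries to Mir192.

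Mir194-2, which is clustered with Mir192, was close to Mir148a. Its levels of 1430 CPM in replicate 1 and 1345 in replicate 2 meant that the ranges of the 2 genes overlapped on the count scale. Per 100 bases of precursor Mir194-2 was higher in both libraries. Its mature 5p product is also made from Mir194-1, and reads that map to both loci were left out, which can lower Mir194-2.

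The genes nearest in level are given by the difference in log2 mean CPM over the 2 libraries, taking 3 above and 3 below each member. Around Mir148a they were Mir665, Mir100 and Mir324 above and Mir298, Mir194-2 and Mir3071 below, with differences of 0.12, 0.11, 0.02, -0.01, -0.03 and -0.20. Within each library Mir665, Mir100 and Mir324 lay above Mir148a and Mir194-2 and Mir3071 below it. The exception was Mir298, which lay below it in replicate 1 and above it in replicate 2. That order is on the count scale. Per 100 bases of precursor Mir148a stood at a mean of 1435 CPM, below all of these neighbours. Those listed below it stood at 1716 (Mir298), 1614 (Mir194-2) and 1547 CPM (Mir3071). Mir3071 lies opposite Mir136 on chromosome 12, and its count rests on the strand of the reads.

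Around Mir148b the neighbours were Mir181a-1, Mir221 and Mir410 above and Mir340, Mir146 and Mir679 below, within -0.11 to 0.08 of it. In both libraries Mir181a-1 and Mir221 lay above Mir148b and Mir340 and Mir146 below it, while Mir410 and Mir679 changed sides between the libraries. Mir221 belongs with Mir222 to a cluster known to target the stem cell receptor gene Kit, and Mir410 and Mir679 to the imprinted Dlk1-Dio3 domain. Around Mir152 they were Mir132, Mir29c and Mir666 above and Mir598, Mir103-2 and Mir19a below, within -0.15 to 0.07 of it. In both libraries Mir29c lay above Mir152 and Mir103-2 and Mir19a below it. Mir132 and Mir598 changed sides, and Mir666 had the same count as Mir152 in replicate 2. Likeness here is of level alone, since 2 libraries of 1 group define no pattern. Mir181a-1 and Mir103-2 each share a mature sequence with another locus, so their levels are uncertain. By CPM per 100 bases the members' ranks were 84, 141 and 186 among the 1894 genes with a matched annotation.

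The closest relatives by seed are the miR-130 and miR-301 miRNAs, whose 3p arms carry the same bases 1 position earlier. They are shown to make that shift visible, from RefSeq and with the seed in capitals as before.
miR-130a-3p: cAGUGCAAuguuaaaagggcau
miR-130b-3p: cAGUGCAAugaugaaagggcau
miR-301a-3p: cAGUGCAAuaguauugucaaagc

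The longest run shared by miR-148a-3p and miR-130a-3p was 7 bases, starting at position 2 of miR-148a-3p and position 1 of miR-130a-3p. The seeds are therefore CAGUGCA and AGUGCAA, which overlap by all but 1 base at each end. The 4 relatives listed, Mir130a, Mir130b, Mir301 and Mir301b, were more abundant as a group. Mir130c, Mir6341 and Mir6389, whose mature sequences in the RefSeq table have the same offset seed, were not on that list. Each had 0 counts in both libraries, which leaves room for levels of up to 0.543 CPM (replicate 1) and 0.946 CPM (replicate 2). Mir721 has that seed as well but was not found by name among the genes counted. For Mir301b, which is on the list, the RefSeq table holds no mature sequence with that seed. The family's counts were 0.0895 of those of the 4 listed relatives together in replicate 1 (interval 0.0878 to 0.0913) and 0.0811 in replicate 2 (0.0789 to 0.0833). Per 100 bases of precursor the ratios were 0.0619 and 0.0562.

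Most of that excess was Mir130a, a miRNA of blood progenitors among other cells. It reached 17040 CPM in replicate 1 and 17270 in replicate 2. Mir130b followed at 3718 and 3935 CPM. Mir148a lay above the remaining 2 members in both libraries, Mir301 at 645 and 621 CPM and Mir301b at 33.8 and 37.9 CPM. Mir148b lay between Mir301 and Mir301b, as did Mir152.

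Further sets place the family among miRNAs of like known function. Levels are on the CPM scale. The first holds 7 miRNA genes known to act on DNA methylation enzymes. Mir148a lay below 2 of them in both libraries, Mir143, a miRNA of smooth muscle and stroma, at 16474 and 14790 CPM, and Mir101b at 6871 and 6293 CPM. It lay above the other 5. Among the miR-29 genes, which target Dnmt3a and Dnmt3b, Mir29a was the highest at 830 CPM in replicate 1 and 873 in replicate 2. Mir29c at 90.8 and 92.1 CPM was just above Mir152 on the count scale, whereas per 100 bases of precursor Mir152 stood at 120.5 CPM and Mir29c at 103.9 CPM. Mir29b-1 and Mir29b-2 stood at 1.26 to 11.7 CPM, but they share a mature sequence and lose the reads that map to both.

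The second set holds 13 miRNA genes known to act on cholesterol handling, in which miR-148a has a part through Abca1. Mir148a lay below 4 of them in both libraries, Mir122, Mir223, Mir144 and Mir185, and above the other 9. Of these 4, Mir122, Mir223 and Mir144 were also listed as markers of hepatocytes, leukocytes and erythroid cells, in that order. Mir185, which is known to repress cholesterol uptake and synthesis, was the nearest above at 1629 CPM in replicate 1 and 1686 in replicate 2. Mir27b was the nearest below at 881 and 776 CPM. Mir33, which lies in an intron of the sterol regulator gene Srebf2 and represses Abca1, stood at 87.7 and 111.7 CPM, slightly above Mir152 in replicate 1 and further above it in replicate 2. Mir128-1, Mir128-2, Mir30c-1 and Mir30c-2 in this set share mature sequences in pairs, so their levels of 32.9 to 127.4 CPM are uncertain. Mir122, Mir223, Mir144 and Mir185 also lay above Mir148a per 100 bases of precursor.

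**Figure D3:**
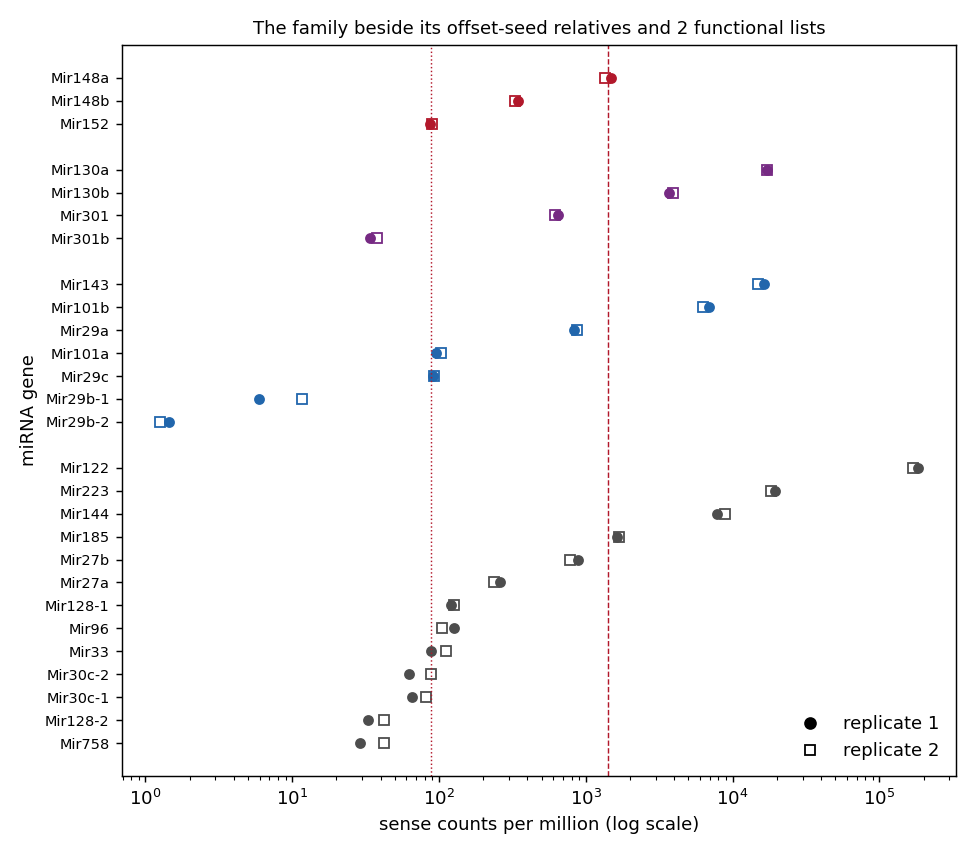
Sense CPM on a log axis for the family (red), the miR-130 and miR-301 genes (purple), the DNA methylation set (blue) and the cholesterol set (grey), with replicate 1 as filled circles and replicate 2 as open squares. The dashed and dotted lines mark the means of Mir148a and Mir152, 1420 and 88.0 CPM, and the 4 miR-130 and miR-301 genes plotted span 33.8 to 17270 CPM.

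The pools were then compared gene by gene, to see how far each member differed between them beyond counting error. The exact binomial test used scaled library sizes and Benjamini-Hochberg adjustment over all 456 genes with at least 10 counts summed, and it compares 2 libraries, not conditions. Replicate 1 had the higher level of Mir148a. Its log2 ratio, replicate 1 over replicate 2, was 0.16 ± 0.027 (SE from counting error; exact binomial test, adjusted p = 1.97e-08), a 1.12-fold difference. Mir148b had a log2 ratio of 0.10 ± 0.055 and did not pass (exact binomial test, adjusted p = 0.162). Mir152 had a log2 ratio of -0.02 ± 0.11 and did not pass either (exact binomial test, adjusted p = 0.943).

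So 1 of the 3 members was called, beside 38.6% of all 456 genes tested, and it was higher in replicate 1, as were 19.7% of all genes tested. None of the 3 was called lower in replicate 1, beside 18.9% of all genes tested. Among the 195 genes whose mean reached 80 CPM, as that of each member did, 59.5% were called in either direction. The median log2 ratio of the members was 0.10, and that of all genes tested 0.03. Of the same 195 genes, 58 had a larger absolute log2 ratio than Mir148a, 109 a larger one than Mir148b and 177 a larger one than Mir152. The SD of the log2 ratios over those 195 genes was 0.203, which is more than the ratio of any member. Those depths also set what could be seen: the SE of Mir152 was about as large as the whole difference of Mir148b.

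Hepatocyte markers moved in the same direction as Mir148a. All 5 of 5 hepatocyte miRNAs were higher in replicate 1 by the exact binomial test, beside 19.7% of all genes tested in that direction. Their median log2 ratio was 0.16. Among the 195 genes whose mean reached 80 CPM, which include Mir122, Mir192 and Mir194-2, 59.5% were called in either direction. The 5 are not independent, since Mir192 and Mir194-2 are clustered and Mir194-1 and Mir194-2 share a mature product. Mir122, Mir192 and Mir194-2 had log2 ratios of 0.14, 0.16 and 0.11. Mir194-1 was at 0.73 on 111 and 39 counts, and Mir802 at 3.77 on 140 and 6 counts. With 6 counts in replicate 2, Mir802 was not among the detected genes. The summed level of the list was 187267 CPM in replicate 1 and 173241 in replicate 2, and none of its members was at 0. The part of these markers in the difference of Mir148a was not tested.

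Other marker lists held called genes as well. Of all 456 genes tested, 19.7% were higher and 18.9% lower in replicate 1. Among the 195 genes whose mean reached 80 CPM, 59.5% were called in either direction. Beside these shares, calls on lists this short are not read as a result about a cell type. In the erythroid list Mir144 and Mir486 were lower in replicate 1, with log2 ratios of -0.17 in each, and Mir451a was higher at 1.10. Of the pancreas list, which matters because miR-148a is abundant there, Mir375 of islets and gut endocrine cells was higher in replicate 1 at 0.35. The acinar pancreas miRNAs Mir216a, Mir216b and Mir217 were near the bottom, between 2.17 and 9.15 CPM, and did not pass. Of the leukocyte list 2 of 4 measured members were higher in replicate 1 and 0 lower, and of the mesenchymal list 2 of 6 were higher and 2 lower. Mir126a, the endothelial marker, was higher at 0.07.

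The relatives by seed and function were called in both directions, to be read beside the 19.7% of all genes tested that were higher and the 18.9% that were lower in replicate 1. Of the 4 miR-130 and miR-301 genes listed, 0 were higher and 1, Mir130b, was lower in replicate 1, with a median log2 ratio of -0.02. Of the 7 DNA methylation genes 2 were higher, Mir143 and Mir101b, and 1, Mir29b-1, was lower, with a median of 0.01. Of the 13 cholesterol genes 5 were higher and 5 lower, with a median of -0.04.

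**Figure D4:**
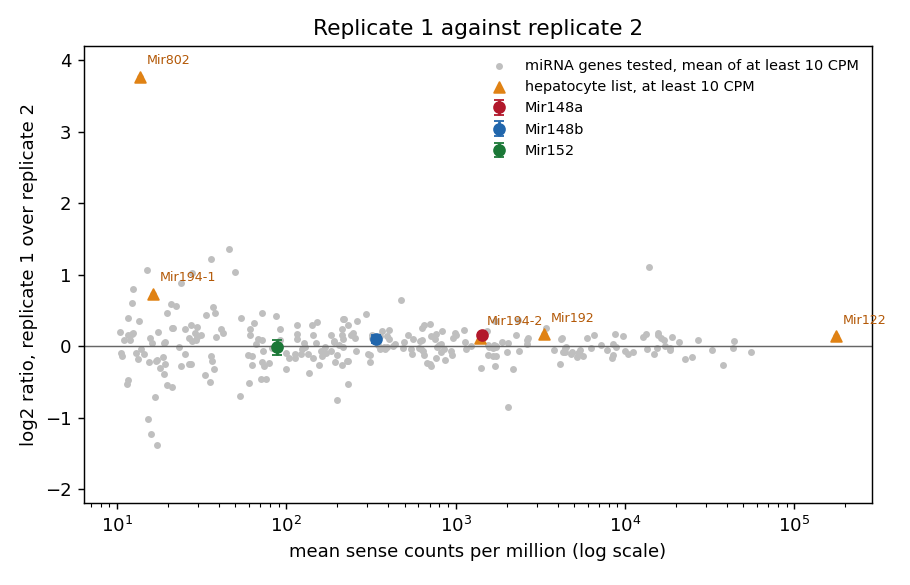
Log2 ratio of replicate 1 over replicate 2 against mean sense CPM (log axis) for genes tested whose mean reached 10 CPM and whose ratio was finite (grey), the hepatocyte markers (orange triangles) and the family (coloured circles, bars are SE from counting error). The family lies between -0.02 and 0.16, inside the cloud of other genes, and all 5 hepatocyte markers lie above 0.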

How the data were processed

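The deposited tables, 1 per library, hold raw counts, that is whole reads per miRNA gene without normalization by the authors, in 3 columns: both strands, own strand (sense) and opposite strand. Per the text deposited beside them, counting used assembly mm10 and annotation M4; no aligner, counter or trimming step is named, which is to say not given in the sources used here. Of all reads, 23.9% and 21.4% were unmapped in replicates 1 and 2. These, reads mapped to several places and reads outside miRNA genes entered no gene count, sense total or test. They entered only the total of all reads, used for percentages of reads and for an alternative scaling.

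Names and positions came from GENCODE M21 on the same assembly by stable gene identifier, for 1894 of 1973 genes, and sequences from the RefSeq table on GRCm38.p6. CPM divides sense counts by the library's sense total. Intervals are exact (Clopper-Pearson, 95%), and those of ratios follow from them. Libraries were compared by an exact conditional binomial test, two-sided (scipy 1.17.1) on TMM sizes from edgeR 4.0.16 in R 4.3.3, at an adjusted p of 0.05, and DESeq2 1.42.0 gave alternative size factors. With 1 group no quasi-likelihood contrast exists. The test was tried on simulated counts that held counting error only (Poisson). That trial cannot show how the test behaves where libraries differ by more than counting error. Named genes were the members, the 3 genes next above and below each, and the members of the lists. The members and lists were chosen with earlier results of these data known. Mir142, listed as a leukocyte marker, was not analysed here.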

Additional observations from a re-analysis of the deposited data

How the results depend on the processing

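The order of the members and the direction of each log2 ratio held under every alternative run. Levels moved with what they were divided by. With both strands together Mir148a, Mir148b, Mir152 and their sum came to 1293, 308, 80.1 and 1681 CPM, because opposite-strand reads of other genes enlarge the total. Per 1000000 of all reads in the tables they were 534, 127, 33.1 and 694, and with Mir122 left out of the total 1723, 410.1, 106.7 and 2240. On TMM-scaled sizes each level stayed within 1 SD of its main value. Per 100 bases of precursor Mir152 was 120.5, and the mean ratios of Mir148b and Mir148a to Mir152 were 2.89 and 11.9, against 3.85 and 16.2, since its precursor is the shortest. Leaving out a replicate in turn gave 1354 to 1486, 330 to 346, 86.6 to 89.3 and 1773 to 1919 CPM. The number of genes called lay between 155 and 187, against 176, over the 5 other settings. Mir148a passed in each of these, with log2 ratios of 0.13 to 0.17, and Mir148b and Mir152 in none. The library comparison needs both replicates, so neither could be left out of it. No paired analysis was possible because there is 1 group. With 2 libraries no spread among animals can be given.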
